A study of Mus musculus with 29 samples.

Results

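The genes described here are 10 genes of the integrated stress response, taken by symbol from the deposited gene-level read counts: Atf4, Atf5, Ddit3, Ddit4, Trib3, Chac1, Asns, Psat1, Phgdh and Slc7a11. All 10 symbols were present among the 23366 genes counted in each library, and all 10 passed the filter on low counts in each fit. The rule names the genes and uses no measured value, although the choice was made with earlier results of these data known.

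The libraries hold RNA of lineage-negative cKit+ Sca1+ bone marrow cells, the compartment of blood stem and early progenitor cells, sorted into CD150-positive and CD150-negative populations. The mice were C57BL/6, 8 to 12 weeks old, of both sexes. Mysm1 encodes a deubiquitinase of histone H2A, and Puma (gene symbol Bbc3) encodes a pro-apoptotic BH3-only protein that p53 induces. CD150-positive cells came as 4 Mysm1-/-Puma+/- libraries (A1 to A4), 7 Mysm1-/-Puma-/- libraries (P1 to P3 and B1, B3, B5 and B6), 2 Puma-/- libraries with intact Mysm1 (C1-4 and C2-5) and 4 wild-type libraries (D1, D2, D3-4 and W1). CD150-negative cells came as 3 libraries each of Mysm1-/-Puma+/- (A1 to A3), Mysm1-/-Puma-/- (B1, B3, B5), Puma-/- (C2, C3, C5) and wild type (D2, D3, D4). No group carries the Mysm1 mutation with both Puma alleles intact, so each difference of a Mysm1-/- group from wild type covers both genes. Nothing in the labels ties the libraries of a group to separate animals, and the p-values measure the spread between libraries, which may be technical.

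The integrated stress response is the pathway by which kinases that sense amino acid shortage, misfolded protein, haem shortage or double-stranded RNA phosphorylate the translation factor eIF2α. General protein synthesis then slows, while the mRNAs of Atf4 and Atf5 are translated more. The ATF4 protein binds composite C/EBP-ATF sites and switches on genes for amino acid synthesis, amino acid uptake and tRNA charging, along with feedback genes and, when stress lasts, genes that favour cell death. In human and mouse blood-forming stem cells ATF4 is known to take part in their upkeep and their survival under stress.

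To show where the ATF4 motif lies in these genes, the promoter windows of RefSeq (GRCm38.p6, 250 bases before to 50 bases after each start site) were searched on both strands for TGATGNAA, the core of the C/EBP-ATF composite site. The motif was found in windows of 4 of the 10 genes, of which Psat1 and Atf5 have 2 windows each. Over the whole table it was found in 3.97% of 32851 windows, or for 4.51% of 27025 genes. The 4 matches are printed 5′ to 3′ on the strand of the gene, with the motif in capitals. They lie at chr6:7693214-7693243 (minus strand) for Asns, chr2:152344028-152344057 (minus) for Trib3, chr2:119351038-119351067 (plus) for Chac1 and chr3:50443652-50443680 (minus) for Slc7a11.
Asns: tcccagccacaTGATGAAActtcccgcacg
Trib3: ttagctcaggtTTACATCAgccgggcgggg
Chac1: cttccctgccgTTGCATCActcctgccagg
Slc7a11: cTGATGCAAacctggagaatTTGCATCAt
The Asns motif starts 23 bases upstream of the start site, the Chac1 motif 193 bases upstream and the Trib3 motif 15 bases downstream. The Slc7a11 window holds 2 matches on opposite strands, 66 and 47 bases upstream. In Trib3 and Chac1 the match is on the opposite strand and reads as its reverse complement. Among other genes of the response, 8 of 24 other ATF4 targets and 5 of 7 tRNA synthetases held the motif, against 0 of 10 genes of the eIF2α switch. These are the genes with a window in the table, out of 28, 12 and 14 in the lists. The windows of Atf4, Atf5, Ddit3, Ddit4, Psat1 and Phgdh held no match, which says only that these letters are not in those 300 bases.

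In the coordinates of the deposited tables (NCBIM37), Atf4 lies at chr15:80085614-80087970 on the plus strand and Ddit4 at chr10:59412423-59414518 on the minus strand. Slc7a11 lies at chr3:50168858-50247535, Phgdh at chr3:98117093-98143913, Psat1 at chr19:15979168-16021827 and Asns at chr6:7625169-7643254, all on the minus strand. Trib3 (chr2:152163158-152169768, minus) and Chac1 (chr2:119176965-119180117, plus) share a chromosome. Ddit3 (chr10:126727830-126733344, plus) overlaps the methionyl tRNA synthetase gene Mars on the opposite strand, Atf5 (chr7:52067627-52072028, minus) overlaps Nup62 and Il4i1, and Psat1 overlaps the pseudogene Gm3329. Whether the authors counted by strand is not given in the sources used here, so the reads of these 3 members cannot be told apart from those of their overlapping partners.

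The 12 CD150-negative libraries held 28066870 to 54339749 counted reads, and the 17 CD150-positive libraries held 12304713 to 35034318. Levels below are read counts per 1000000 reads (CPM) after TMM scaling over all 29 libraries. Slamf1, which encodes CD150, was at 11.2 to 31.3 CPM in CD150-positive and 0.228 to 2.31 CPM in CD150-negative libraries. Counts over the whole Mysm1 and Bbc3 genes check no genotype, since the labels do not say what the mutant alleles lack. Mysm1 was at 78.7 to 127 CPM in Mysm1-/-Puma+/- and 69.3 to 75.2 CPM in Mysm1-/-Puma-/- CD150-negative libraries, against 85.4 to 94.1 CPM in Puma-/- and 100.2 to 110 CPM in wild-type libraries, so the libraries labelled Mysm1-/-Puma+/- did not stand apart. Bbc3 was at 21.7 to 46.4 CPM in Mysm1-/-Puma+/-, 20.5 to 29.96 CPM in Mysm1-/-Puma-/-, 5.22 to 6.01 CPM in Puma-/- and 4.29 to 7.94 CPM in wild-type CD150-negative libraries, so in these cells neither group labelled Puma-/- stood below its counterpart with Puma. In CD150-positive libraries Bbc3 was at 2.03 to 2.67 CPM in Puma-/-, below the 2.88 to 4.59 CPM of wild type. It was at 15.6 to 24.8 CPM in Mysm1-/-Puma-/- and 18.6 to 25.3 CPM in Mysm1-/-Puma+/- libraries, which overlapped. Mysm1 in CD150-positive libraries was at 67.8 to 88.3 CPM in Mysm1-/-Puma-/-, below the 109 to 126 CPM of wild type. In Mysm1-/-Puma+/- it was at 99.0 to 118 CPM and overlapped wild type. Reads of 1464 olfactory, vomeronasal and trace amine receptor genes, which blood cells are not known to express, took 607.97 to 8902.38 CPM of CD150-positive and 1000.1 to 5670.6 CPM of CD150-negative libraries. Libraries P1, P2, P3 and W1 carry their own letters in the labels, and all 4 stand apart in the immediate-early gene Fos, at 11.3, 62.4, 121 and 216 CPM, against at most 4.68 CPM in the libraries named A to D.

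**Figure D1:**
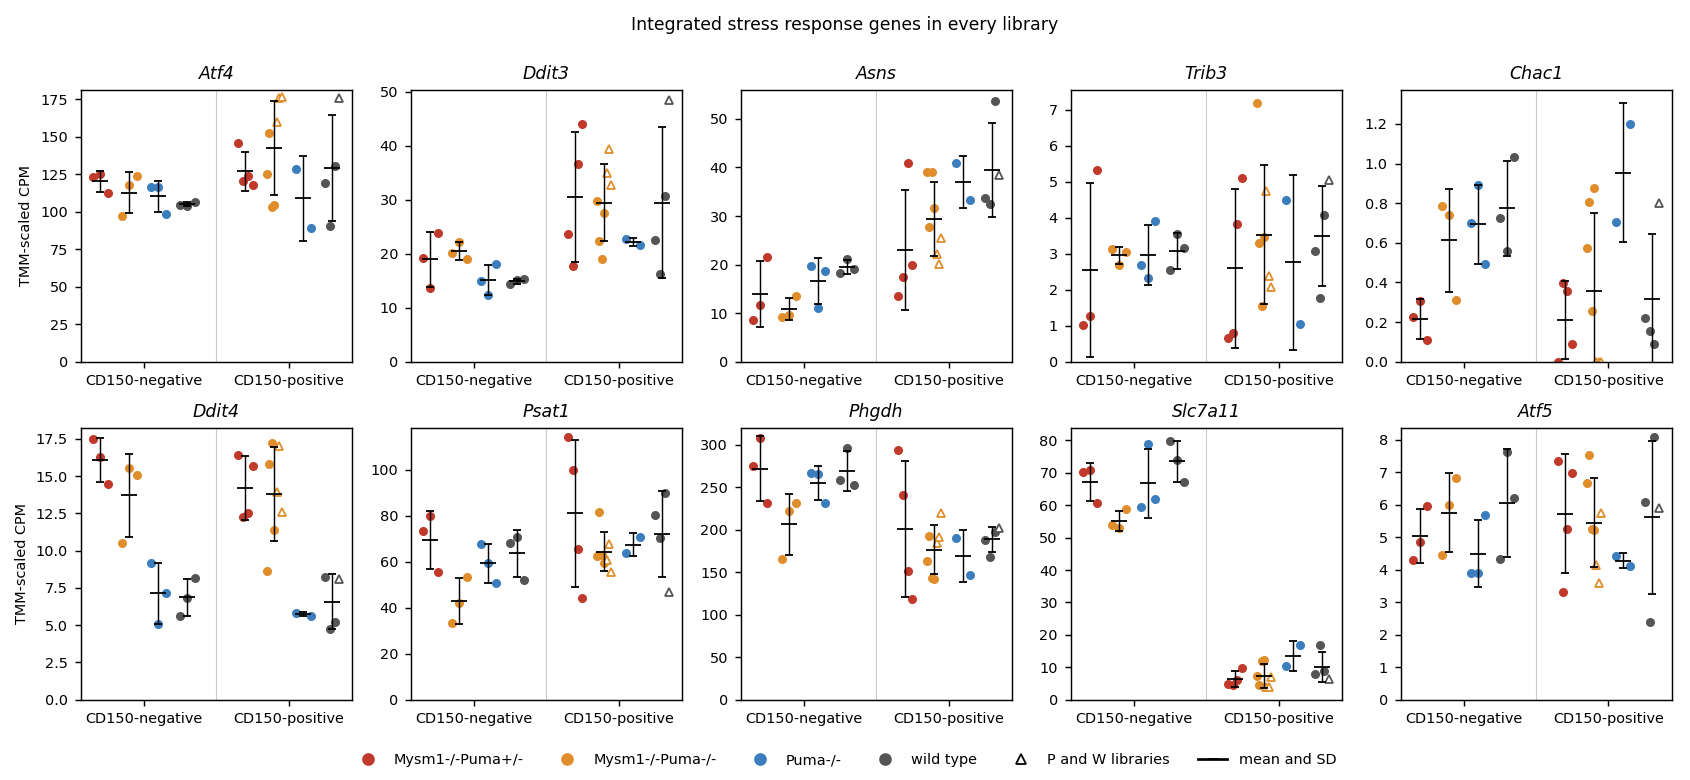
TMM-scaled CPM of each of the 10 genes in every library, by population and genotype, with group means and SDs as bars; open triangles mark the P and W libraries. Ddit4 separates Mysm1-/- libraries (8.63 to 17.5 CPM) from the other genotypes (4.72 to 9.20 CPM within their own population), and Slc7a11 separates the populations.

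Per kilobase of exon, the genes spanned more than 2 orders of magnitude in level. Averaged over the 8 group means, Phgdh had 116 CPM per kb, Atf4 69.2, Ddit3 26.0, Psat1 14.6, Asns 12.3, Ddit4 6.24, Slc7a11 4.06, Atf5 1.49, Trib3 1.46 and Chac1 0.33 CPM per kb. The group means of Phgdh, from 90.3 to 145 CPM per kb, lay above those of Atf4, from 60.8 to 82.6, and those of Atf4 above those of Ddit3, from 17.2 to 35.0. From Ddit3 down to Trib3 the ranges of group means of neighbours in this order overlapped. Chac1 rested on 0 to 41 reads a library and was at 0 in 4 libraries, so its values carry a large counting error. Trib3 rested on 14 to 194 reads a library.

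Between genotypes Ddit4 was the only member that edgeR called. It encodes REDD1, a stress-induced inhibitor of the growth kinase complex mTORC1, and is known as a target of ATF4 and of p53. In CD150-negative cells Ddit4 was at 17.5, 16.3 and 14.5 CPM in Mysm1-/-Puma+/- libraries and at 10.5, 15.5 and 15.1 CPM in Mysm1-/-Puma-/- libraries, against 9.20, 5.07 and 7.14 CPM in Puma-/- libraries and 5.63, 6.82 and 8.15 CPM in wild-type libraries. Each of the 6 Mysm1-/- libraries was above each of the 6 libraries with intact Mysm1. How many of all genes separate all Mysm1-/- from all other libraries in this way was not counted. Between single groups separation was common in these cells. Of all genes with a mean of at least 1 CPM, 19.05% did not overlap in Mysm1-/-Puma+/- and 23.99% in Mysm1-/-Puma-/- cells against wild type. The share was 26.35% in Mysm1-/-Puma-/- against Mysm1-/-Puma+/- and 19.64% in Mysm1-/-Puma-/- against Puma-/- cells. Ddit4 rose in Mysm1-/-Puma+/- cells by 1.20 ± 0.25 on the log2 scale (SE, n = 3 each; edgeR quasi-likelihood test, adjusted p = 0.0228) and in Mysm1-/-Puma-/- cells by 0.96 ± 0.25 (adjusted p = 0.0486), both against wild type. In bulk RNA, fewer cells of a type and less RNA per cell cannot be told apart.

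Ddit4 was the only 1 of the 10 members called in either comparison by edgeR, where 0.869% of 21168 genes were called in Mysm1-/-Puma+/- and 2.31% in Mysm1-/-Puma-/- cells against wild type. In the higher direction the shares were 0.638% and 0.704% of all genes, and 1.61% were lower in the second comparison. Both Ddit4 calls depended on single libraries. For Mysm1-/-Puma+/- against wild type the adjusted p was 0.0923 without A1, 0.0704 without A2, 0.151 without D2, 0.0947 without D3 and 0.0518 without D4, with a log2 fold change of 1.07 to 1.33. For Mysm1-/-Puma-/- against wild type it was 0.204 without B3, 0.107 without B5, 0.224 without D2, 0.147 without D3 and 0.0666 without D4, with a log2 fold change of 0.83 to 1.09. With the receptor reads as a covariate the log2 fold change was 1.14 in Mysm1-/-Puma+/- cells.

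In CD150-positive cells Ddit4 was at 16.4, 12.3, 12.5 and 15.7 CPM in Mysm1-/-Puma+/- libraries. Mysm1-/-Puma-/- libraries ran from 8.63 CPM through a median of 13.9 to 17.2 CPM. Puma-/- libraries had 5.85 and 5.63 CPM, and wild-type libraries 8.22, 4.72, 5.23 and 8.07 CPM. As in CD150-negative cells, no Mysm1-/- library reached down to a library with intact Mysm1, although B1 (8.63 CPM) and D1 (8.22 CPM) were close. The share of all genes that separate all Mysm1-/- from all other libraries was not counted here either. Between single groups, 7.22% of genes with a mean of at least 1 CPM did not overlap in Mysm1-/-Puma+/- against wild type. In Mysm1-/-Puma-/- against wild type the share was 2.16%. The log2 fold change against wild type was 1.08 ± 0.25 in Mysm1-/-Puma+/- cells (SE, n = 4 each; edgeR adjusted p = 0.0688) and 1.06 ± 0.23 in Mysm1-/-Puma-/- cells (n = 7 and 4; adjusted p = 0.0505), neither of which passed the threshold. Without B1 the second was 1.15 with an adjusted p of 0.0224.

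No member was called by edgeR in CD150-positive cells in these comparisons, where 0.454% of 20944 genes were called in Mysm1-/-Puma+/- and 0.291% in Mysm1-/-Puma-/- cells against wild type. At an unadjusted p under 0.05 there were 2 members (Ddit4 and Asns) and 1 member (Ddit4), against 1824 and 1556 of 20944 genes. DESeq2 and limma-trend each called 1 member, Ddit4, in each comparison, with adjusted p of 0.0123 and 0.0440 in Mysm1-/-Puma+/- cells and 0.00156 and 0.0256 in Mysm1-/-Puma-/- cells. The shares over all genes, here and below, are those of edgeR. The difference of the Mysm1-/-Puma+/- effect on Ddit4 between CD150-positive and CD150-negative cells was -0.16 ± 0.35 on the log2 scale (adjusted p = 1.00). For this difference of effects edgeR called 0 of the 10 members and 0.00916% of 21830 genes, and DESeq2 and limma-trend called 0 members. At an unadjusted p under 0.05 were 0 members and 801 of 21830 genes.

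Loss of Puma on top of Mysm1 left Ddit4 values that overlapped between the genotypes in both populations. Mysm1-/-Puma-/- against Mysm1-/-Puma+/- gave a log2 fold change of -0.24 ± 0.24 in CD150-negative cells (adjusted p = 0.685) and -0.01 ± 0.22 in CD150-positive cells (adjusted p = 1). Against Puma-/- cells, which share the Puma genotype, Ddit4 in Mysm1-/-Puma-/- cells was 0.90 ± 0.24 higher on the log2 scale in CD150-negative cells (adjusted p = 0.0924) and 1.24 ± 0.31 in CD150-positive cells (n = 7 and 2; adjusted p = 0.205). Neither passed the threshold with edgeR, whereas DESeq2 gave adjusted p of 0.0288 and 0.0233. Puma-/- against wild type was 0.06 ± 0.25 in CD150-negative and -0.18 ± 0.32 in CD150-positive cells.

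**Figure D2:**
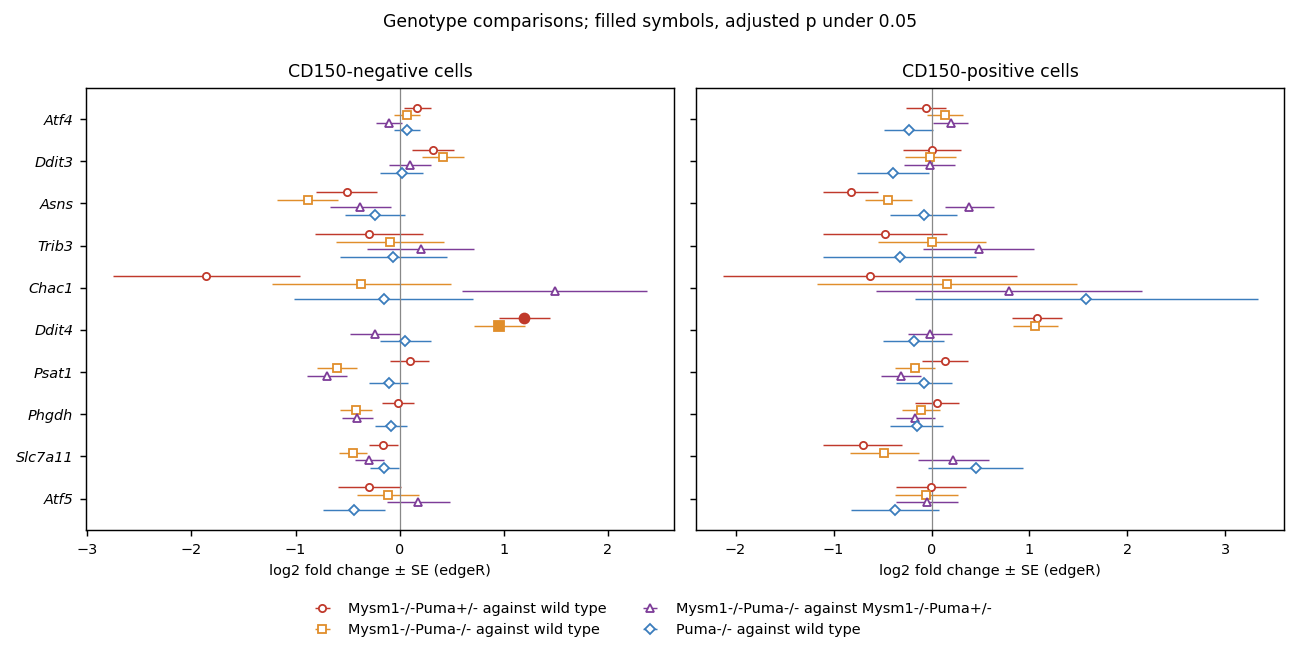
Log2 fold changes of the 10 genes between genotypes in each population, with SEs as bars; filled symbols mark an adjusted p under 0.05. Ddit4 in the 2 Mysm1-/- groups against wild type of CD150-negative cells, at 1.20 and 0.96, holds the only filled symbols.

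Atf4, the transcription factor at the centre of the response, which is controlled largely at translation, varied little between genotypes. In CD150-negative cells it was at 123, 125 and 112 CPM in Mysm1-/-Puma+/- libraries and at 97.2, 118 and 124 CPM in Mysm1-/-Puma-/- libraries. Puma-/- libraries had 116, 116 and 98.5 CPM, and wild-type libraries 105, 104 and 106 CPM. The Mysm1-/-Puma+/- libraries lay above the wild-type libraries, by 0.17 ± 0.13 on the log2 scale (adjusted p = 0.751), a separation that 19.05% of genes also showed, and the other groups overlapped. In CD150-positive cells Atf4 was at 146, 120, 123 and 118 CPM in Mysm1-/-Puma+/- libraries, 103, 153 and 176 CPM (lowest, median and highest) in Mysm1-/-Puma-/- libraries, 129 and 88.9 CPM in Puma-/- libraries and 119, 90.5, 130 and 176 CPM in wild-type libraries. The highest 4 of the 17 values were those of P1 (160 CPM), P2, P3 and W1 (176 CPM each), and the genotypes overlapped.

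Ddit3 encodes CHOP, a pro-apoptotic partner of ATF4, and whether its reads include some of the overlapping gene Mars is not known. It was at 20.1, 22.2 and 19.0 CPM in CD150-negative Mysm1-/-Puma-/- libraries. Mysm1-/-Puma+/- libraries had 19.3, 13.7 and 23.9 CPM, Puma-/- libraries 15.0, 12.4 and 18.1 CPM, and wild-type libraries 14.4, 15.2 and 15.2 CPM. The Mysm1-/-Puma-/- values lay above all 6 values with intact Mysm1, by 0.42 ± 0.20 on the log2 scale against wild type (adjusted p = 0.396). Against wild type 23.99% of genes with a mean of at least 1 CPM also did not overlap, and against Puma-/- cells 19.64%. In CD150-positive cells the genotypes overlapped, with W1 highest at 48.5 CPM and D2 lowest at 16.3 CPM, both wild type. Atf5, a relative of Atf4 that is also induced at translation, ranged from 3.89 to 7.61 CPM in CD150-negative and from 2.40 to 8.07 CPM in CD150-positive libraries, with all genotypes overlapping.

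Trib3, a pseudokinase induced by ATF4 that dampens its activity, was at 1.03, 1.28 and 5.32 CPM in CD150-negative Mysm1-/-Puma+/- libraries, against 2.54, 3.54 and 3.15 CPM in wild-type libraries. A3 stood well above the other libraries of its own group, and the groups overlapped. The same group in CD150-positive cells was again split, with 0.670 and 0.795 CPM in A1 and A2 and 3.83 and 5.10 CPM in A3 and A4, against 3.07, 1.78, 4.08 and 5.04 CPM in wild-type libraries. Chac1, which encodes a glutathione-degrading enzyme, was at 0.228, 0.307 and 0.110 CPM in CD150-negative Mysm1-/-Puma+/- libraries, against 0.727, 0.560 and 1.03 CPM in wild-type libraries. These groups did not overlap, and the log2 fold change was -1.86 ± 0.90 (adjusted p = 0.536). Of genes with a mean of at least 1 CPM, 19.05% did not overlap in this comparison.

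Asns, the enzyme that makes asparagine, was at 9.25, 9.71 and 13.5 CPM in CD150-negative Mysm1-/-Puma-/- libraries and at 8.56, 11.7 and 21.5 CPM in Mysm1-/-Puma+/- libraries. Puma-/- libraries had 19.8, 11.1 and 18.8 CPM and wild-type libraries 18.2, 21.1 and 19.1 CPM. All 3 Mysm1-/-Puma-/- libraries were below all wild-type libraries, and in the Mysm1-/-Puma+/- group A3 was the exception. In Mysm1-/-Puma-/- against wild type 23.99% of genes with a mean of at least 1 CPM separated in one direction or the other. The log2 fold change against wild type was -0.88 ± 0.29 in Mysm1-/-Puma-/- cells (edgeR adjusted p = 0.158, DESeq2 adjusted p = 0.0483) and -0.51 ± 0.29 in Mysm1-/-Puma+/- cells (edgeR adjusted p = 0.644). In CD150-positive cells Asns was at 13.5, 17.4, 41.0 and 19.9 CPM in Mysm1-/-Puma+/- libraries, against 33.6, 32.5, 53.6 and 38.4 CPM in wild-type libraries. A3 was again the highest of its group and the only library in reach of wild type. The log2 fold change was -0.82 ± 0.28 (adjusted p = 0.344), and without A3 it was -1.26 (adjusted p = 0.0188).

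Psat1 and Phgdh encode enzymes of serine synthesis from glycolysis. Psat1 was at 33.6, 42.1 and 53.4 CPM in CD150-negative Mysm1-/-Puma-/- libraries, against 73.4, 79.7 and 55.4 CPM in Mysm1-/-Puma+/- libraries, 67.7, 59.4 and 50.9 CPM in Puma-/- libraries and 68.3, 70.9 and 52.0 CPM in wild-type libraries. Phgdh was at 165, 222 and 232 CPM in Mysm1-/-Puma-/- libraries, against 275, 308 and 232 CPM in Mysm1-/-Puma+/- libraries, 267, 266 and 231 CPM in Puma-/- libraries and 259, 296 and 253 CPM in wild-type libraries. For both genes the Mysm1-/-Puma-/- values lay below those of Mysm1-/-Puma+/- cells, narrowly at the upper end, as did the values of 26.35% of genes in one direction or the other, and B1 was lowest. Against Mysm1-/-Puma+/- the log2 fold change was -0.70 ± 0.19 for Psat1 (adjusted p = 0.0701) and -0.41 ± 0.15 for Phgdh (adjusted p = 0.175), and against wild type -0.60 ± 0.19 (adjusted p = 0.129) and -0.42 ± 0.15 (adjusted p = 0.202). Psat1 passed the threshold against Mysm1-/-Puma+/- when A3 (-0.83, adjusted p = 0.0181) or B5 (-0.89, adjusted p = 0.0244) was left out, and against wild type when B5 was left out (-0.79, adjusted p = 0.0411).

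For Mysm1-/-Puma-/- against Mysm1-/-Puma+/- in CD150-negative cells edgeR called 0 of the 10 members and 1.24% of all genes. That share rested on single libraries, with 263 genes called over all libraries, 1 without A2 and 1086 without A3. At an unadjusted p under 0.05 were 3 members and 3607 of 21168 genes. DESeq2 called 1 member (Psat1, adjusted p = 0.0112) and limma-trend 0. Against Puma-/- cells edgeR called 0 members and 1.35% of all genes. There 5 members and 2339 of 21168 genes had an unadjusted p under 0.05. DESeq2 called 1 member (Ddit4) and limma-trend 0. Beside these values, the summed level of 12 cell division genes was 1329 to 1936 CPM in Mysm1-/-Puma-/- libraries, against 2320 to 3184 CPM in Mysm1-/-Puma+/-, 2815 to 3178 CPM in Puma-/- and 3019 to 3706 CPM in wild-type libraries. All 12 of these genes fell in Mysm1-/-Puma-/- cells against wild type and 9 of 12 fell against Mysm1-/-Puma+/-. Their part in the Asns, Psat1 and Phgdh values was not tested.

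Slc7a11 encodes xCT, the cystine importer that feeds glutathione synthesis. In CD150-negative cells it was at 53.9, 52.9 and 58.8 CPM in Mysm1-/-Puma-/- libraries, against 70.3, 70.8 and 60.6 CPM in Mysm1-/-Puma+/- libraries, 59.3, 78.9 and 61.9 CPM in Puma-/- libraries and 79.8, 73.8 and 67.1 CPM in wild-type libraries. The Mysm1-/-Puma-/- libraries were the lowest 3 of the 12. Of genes with a mean of at least 1 CPM, 23.99% did not overlap against wild type, 26.35% against Mysm1-/-Puma+/- and 19.64% against Puma-/- cells. The log2 fold change was -0.45 ± 0.14 against wild type (edgeR adjusted p = 0.115, DESeq2 adjusted p = 0.0330) and -0.29 ± 0.14 against Mysm1-/-Puma+/- (edgeR adjusted p = 0.289). With the receptor reads as a covariate the value against wild type was -0.48 (adjusted p = 0.0381). Altogether 5 members reached an unadjusted p under 0.05 in Mysm1-/-Puma-/- against wild type, as did 2775 of 21168 genes. Of the members DESeq2 called 4 (Asns, Ddit4, Psat1 and Slc7a11), edgeR 1 and limma-trend 0 of the 9 in the deposited CPM table. The share of all genes called by DESeq2 or limma-trend is not given here, so their counts have no background beside them.

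As a group, the 10 genes did not move one way with genotype. In CD150-negative cells 4 of 10 had a positive log2 fold change in Mysm1-/-Puma+/- against wild type (median -0.09, against -0.05 over all genes) and 3 of 10 in Mysm1-/-Puma-/- against wild type (median -0.24, against 0.02). In CD150-positive cells 4 of 10 were positive in each of these comparisons, with a median of -0.03 in both and of -0.05 over all genes in both. Puma-/- against wild type had 0 members called by edgeR in either population, 0 at an unadjusted p under 0.05 and 0 by DESeq2 or limma-trend, with 0% of all genes called. At an unadjusted p under 0.05 were 324 of 21168 genes in CD150-negative and 255 of 20944 in CD150-positive cells. The remaining comparisons of CD150-positive cells also had 0 members called by edgeR. For Mysm1-/-Puma-/- against Mysm1-/-Puma+/-, 0% of all genes were called, and neither DESeq2 nor limma-trend called a member. There 0 members and 797 of 20944 genes had an unadjusted p under 0.05. Mysm1-/-Puma-/- against Puma-/- had 0.115% of all genes called. At an unadjusted p under 0.05 were 2 members (Ddit4 and Slc7a11) and 2042 of 20944 genes, and DESeq2 and limma-trend each called 1 member (Ddit4).

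Between the populations the clearest member was Slc7a11. In CD150-positive cells it was at 4.89, 4.52, 6.19 and 9.78 CPM in Mysm1-/-Puma+/- libraries, 3.78, 6.91 and 12.4 CPM (lowest, median and highest) in Mysm1-/-Puma-/- libraries, 10.3 and 16.9 CPM in Puma-/- libraries and 8.00, 16.9, 8.91 and 6.33 CPM in wild-type libraries. Each CD150-positive library was below each CD150-negative library, where the lowest value was 52.9 CPM. How many of all genes separate between the populations was not counted, here or for the members below. In CD150-positive against CD150-negative cells Slc7a11 fell in all 3 genotypes, with a log2 fold change of -3.41 ± 0.37 in Mysm1-/-Puma+/- (edgeR adjusted p = 3.31e-07), -2.93 ± 0.30 in Mysm1-/-Puma-/- (adjusted p = 5.76e-08) and -2.82 ± 0.36 in wild type (adjusted p = 4.21e-06). It passed the threshold in each alternative run for the 3 comparisons.

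Asns and Ddit3 were higher in CD150-positive wild-type cells. Asns was at 33.6, 32.5, 53.6 and 38.4 CPM in CD150-positive and 18.2, 21.1 and 19.1 CPM in CD150-negative wild-type libraries, without overlap, and rose by 1.06 ± 0.32 on the log2 scale (adjusted p = 0.0385). In Mysm1-/-Puma-/- cells it ran from 20.05 CPM through a median of 27.7 to 39.1 CPM in CD150-positive libraries, against 9.25, 9.71 and 13.5 CPM in CD150-negative libraries. The populations again stood apart, by 1.44 ± 0.30 (adjusted p = 0.00132), a call kept in each alternative run. In Mysm1-/-Puma+/- cells the values overlapped, with 13.5 to 41.0 CPM in CD150-positive and 8.56 to 21.5 CPM in CD150-negative libraries and a log2 fold change of 0.70 ± 0.32 (adjusted p = 0.247), or 1.17 (adjusted p = 0.0432) without the CD150-negative A3. The wild-type call of Asns was lost without the CD150-positive D2 (adjusted p = 0.0510), D3-4 (0.130) or W1 (0.0527), or the CD150-negative D2 (0.149), D3 (0.0981) or D4 (0.117), with a log2 fold change of 0.90 to 1.11. With no P or W library in the fit it was 1.04 (adjusted p = 0.0522).

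Ddit3 in wild-type cells was at 22.5, 16.3, 30.7 and 48.5 CPM in CD150-positive and 14.4, 15.2 and 15.2 CPM in CD150-negative libraries. The populations did not overlap, W1 stood highest and D2 lay just above the CD150-negative values. The share of all genes without such overlap was not counted. It rose by 1.01 ± 0.29 on the log2 scale (adjusted p = 0.0307), but without W1 the value was 0.67 (adjusted p = 0.170), and with no P or W library in the fit 0.64 (adjusted p = 0.187). The call was also lost without the CD150-positive D3-4 (adjusted p = 0.0593) or the CD150-negative D2 (0.118), D3 (0.102) or D4 (0.0876). In the Mysm1-/- groups Ddit3 was not called, with 0.67 ± 0.29 in Mysm1-/-Puma+/- (adjusted p = 0.220) and 0.51 ± 0.26 in Mysm1-/-Puma-/- cells (adjusted p = 0.251).

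Psat1 in Mysm1-/-Puma-/- cells ran from 55.5 CPM through a median of 62.6 to 81.7 CPM in CD150-positive libraries, against 33.6, 42.1 and 53.4 CPM in CD150-negative libraries. All CD150-positive values were above the CD150-negative ones, by 0.58 ± 0.21 on the log2 scale (adjusted p = 0.0723), and without the CD150-negative B5 by 0.84 (adjusted p = 0.0332). Phgdh leaned the other way. It was at 188, 168, 198 and 201 CPM in CD150-positive wild-type libraries, against 259, 296 and 253 CPM in CD150-negative wild-type libraries, a separation of -0.47 ± 0.19 on the log2 scale (adjusted p = 0.172). In Mysm1-/-Puma+/- cells CD150-positive libraries spread from 119 to 294 CPM, with A1 and A2 at 294 and 240 CPM and A3 and A4 at 151 and 119 CPM, across the CD150-negative values of 232 to 308 CPM (log2 fold change -0.45 ± 0.19, adjusted p = 0.221). Without the CD150-positive A1 that value was -0.68 (adjusted p = 0.0467). Atf4 was not called between populations in the 3 genotypes tested (Puma-/- was not tested between populations), with log2 fold changes of 0.33 ± 0.16 in Mysm1-/-Puma-/- cells (adjusted p = 0.207) and 0.33 ± 0.17 in wild type (adjusted p = 0.331).

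Between CD150-positive and CD150-negative cells, edgeR thus called 1 member in Mysm1-/-Puma+/- (Slc7a11, lower), 2 in Mysm1-/-Puma-/- (Asns higher, Slc7a11 lower) and 3 in wild type (Asns and Ddit3 higher, Slc7a11 lower). Over all genes it called 5.9% in Mysm1-/-Puma+/-, 12.3% in Mysm1-/-Puma-/- and 7.15% in wild type. In the higher direction these were 5.16% in Mysm1-/-Puma-/- and 3.09% in wild type, and in the lower direction 3.24% in Mysm1-/-Puma+/-, 7.14% in Mysm1-/-Puma-/- and 4.05% in wild type. The members' median log2 fold change was 0.04 in Mysm1-/-Puma+/- (0.00 over all genes), 0.12 in Mysm1-/-Puma-/- (-0.07 over all genes) and 0.09 in wild type (0.05 over all genes). Other cell type markers moved with the population. The summed level of 5 megakaryocyte markers was 239 to 1266 CPM in CD150-positive and 32.7 to 65.5 CPM in CD150-negative libraries, with 4 of 5 higher in Mysm1-/-Puma+/-, 5 of 5 in Mysm1-/-Puma-/- and 4 of 5 in wild type. That of 11 erythroid markers was 623 to 1369 CPM against 298 to 605 CPM, with Hba-a1 or Hbb-b1 at 0 in several groups, and that of 8 granulocyte and monocyte markers was 269 to 974 CPM against 538 to 2040 CPM. The part of these lineages in the Slc7a11, Asns and Ddit3 values was not tested.

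**Figure D3:**
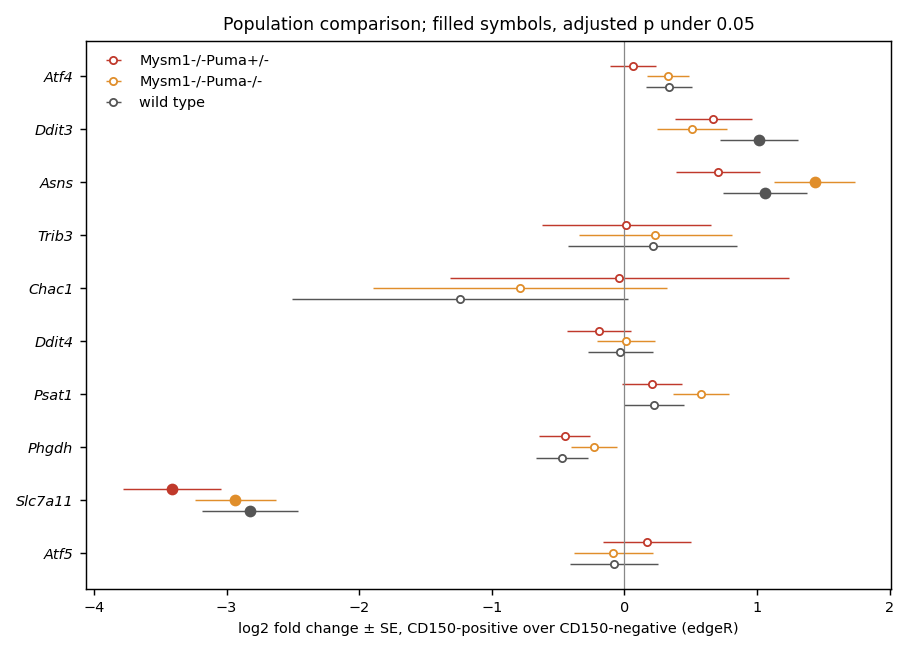
Log2 fold changes of the 10 genes in CD150-positive against CD150-negative cells, by genotype, with SEs as bars; filled symbols mark an adjusted p under 0.05. Slc7a11 lies between -3.41 and -2.82 in the 3 genotypes, while the other genes lie nearer to 0, with Asns at 0.70 to 1.44.

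The CD150-positive Mysm1-/-Puma-/- group holds 3 libraries named P and 4 named B, which were compared as a check of the naming. Of the members 0 were called by edgeR in P against B libraries, with 0.129% of all genes called. At an unadjusted p under 0.05 were 4 members and 2602 of 21737 genes. DESeq2 called 1 member (Chac1) and limma-trend 0. Atf4 was at 160, 176 and 176 CPM in P libraries, against 125, 153, 103 and 104 CPM in B libraries, without overlap (0.51 ± 0.17 on the log2 scale, adjusted p = 0.295). The share of all genes without overlap between P and B libraries was not counted. Slc7a11 was at 3.78, 4.04 and 6.91 CPM in P libraries, against 7.19, 4.51, 12.1 and 12.4 CPM in B libraries, and the names overlapped (-0.86 ± 0.40, adjusted p = 0.405). Ddit4 had 13.9, 16.999 and 12.6 CPM in P libraries and 8.63, 15.8, 17.2 and 11.4 CPM in B libraries (0.15 ± 0.27, adjusted p = 0.830). Chac1 had no read in the 3 P libraries and 52 reads in the 4 B libraries. The 0.654 CPM over the B libraries was 13.3 times a floor of 3 counts over the P libraries, or 0.0493 CPM. For P against B libraries the adjusted p of Chac1 was 0.228 with edgeR and 0.0214 with DESeq2. The floor covers the counting error of the P libraries only, not that of the B libraries or the spread between libraries, so the ratio is not a lower bound.

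Other genes of the pathway are described by lists of their role, which were also chosen by name. Among 28 other ATF4 targets, Sesn2, which encodes sestrin 2, an inhibitor of mTORC1 known as a target of both ATF4 and p53, ran alongside Ddit4. In CD150-negative cells Sesn2 was at 16.9, 17.2 and 16.0 CPM in Mysm1-/-Puma+/- libraries and 8.58, 16.4 and 14.3 CPM in Mysm1-/-Puma-/- libraries, against 3.66, 6.19 and 2.98 CPM in Puma-/- libraries and 3.02, 3.88 and 3.48 CPM in wild-type libraries. Its Mysm1-/- values lay above all others, a separation whose share over all genes was not counted. Sesn2 rose against wild type by 2.24 ± 0.29 on the log2 scale in Mysm1-/-Puma+/- (adjusted p = 3.60e-04) and by 1.88 ± 0.29 in Mysm1-/-Puma-/- cells (adjusted p = 0.00122). In CD150-positive cells it rose by 1.83 ± 0.30 (adjusted p = 0.00284) and by 1.92 ± 0.28 (adjusted p = 6.56e-04). Gdf15, a stress cytokine that is likewise a known ATF4 and p53 target, was at 0.597 to 1.78 CPM in Mysm1-/-Puma+/- and 1.34 to 4.89 CPM in Mysm1-/-Puma-/- CD150-positive libraries. It was at 0.101 and 0.225 CPM in Puma-/- libraries and had no read in 3 of the 4 wild-type libraries, with 0.0887 CPM in D3-4.

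In all, the list of other targets had 1 gene higher (Sesn2) and 0 lower in CD150-negative Mysm1-/-Puma+/- cells against wild type, with 13 of 28 positive (median -0.08, against -0.05 over all genes). In CD150-negative Mysm1-/-Puma-/- cells it had 1 higher (Sesn2) and 2 lower, with 8 of 28 positive (median -0.30, against 0.02). The 2 lower genes were Mthfd2, the mitochondrial folate enzyme downstream of serine (-1.02 ± 0.22, adjusted p = 0.0183), and Slc7a5, the large neutral amino acid transporter LAT1 (-0.74 ± 0.19, adjusted p = 0.0487). Mthfd2 was at 8.35, 13.3 and 12.7 CPM in these libraries, against 27.7, 18.8 and 21.5 CPM in wild-type libraries. In CD150-positive cells 2 of 27 were higher (Sesn2 and Gdf15) and 0 lower in each Mysm1-/- group against wild type. Of all genes, edgeR called 0.869% in Mysm1-/-Puma+/- CD150-negative cells against wild type. In Mysm1-/-Puma-/- CD150-negative cells 0.704% were higher and 1.61% lower. In CD150-positive cells the shares were 0.454% in Mysm1-/-Puma+/- and 0.291% in Mysm1-/-Puma-/- cells. Against Puma-/- cells, Mysm1-/-Puma-/- cells had Sesn2 higher in both populations (1.58 with an adjusted p of 0.00614 in CD150-negative and 1.90 with 0.0444 in CD150-positive cells) and Mthfd2 lower in CD150-negative cells (-0.95, adjusted p = 0.0409). There 1.35% of all genes were called in CD150-negative and 0.115% in CD150-positive cells.

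Between the populations the same 28 targets had 1 higher and 2 lower in Mysm1-/-Puma+/-, 3 higher and 3 lower in Mysm1-/-Puma-/- and 2 higher and 3 lower in wild type, where 5.9%, 12.3% and 7.15% of all genes were called. Slc3a2, which encodes CD98, the heavy chain that carries xCT and LAT1 to the cell surface, fell in CD150-positive cells in the direction of Slc7a11. Its log2 fold change was -0.54 ± 0.15 in Mysm1-/-Puma+/- (adjusted p = 0.0312), -0.85 ± 0.14 in Mysm1-/-Puma-/- (adjusted p = 4.35e-05) and -0.75 ± 0.15 in wild type (adjusted p = 0.00158). Cebpb, which encodes a C/EBP partner of ATF4, fell in all 3 as well, with log2 fold changes of -1.07 in Mysm1-/-Puma+/-, -0.79 in Mysm1-/-Puma-/- and -0.90 in wild type. Nupr1, a stress-induced chromatin protein, rose by 3.10 ± 0.68 in Mysm1-/-Puma+/- (adjusted p = 0.00358), 2.99 ± 0.64 in Mysm1-/-Puma-/- (adjusted p = 0.00158) and 2.74 ± 0.66 in wild type (adjusted p = 0.00732). Aldh18a1, a proline synthesis enzyme, rose by 0.67 in Mysm1-/-Puma-/- (adjusted p = 0.00102) and 0.49 in wild type (adjusted p = 0.0416), and Mthfd2 rose by 0.65 in Mysm1-/-Puma-/- (adjusted p = 0.0404). Pycr1, which completes proline synthesis, fell in Mysm1-/-Puma-/- (-1.38, adjusted p = 0.0224), and Vldlr, a lipoprotein receptor, fell in wild type (-0.998, adjusted p = 0.0210).

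The 12 tRNA synthetases, which charge tRNAs with amino acids and rise when ATF4 is active, gave 0 positive values of 12 in CD150-negative Mysm1-/-Puma-/- cells against wild type (median -0.36, against 0.02 over all genes). Of these Aars, for alanine, fell (-0.65 ± 0.15, adjusted p = 0.0219), where 2.31% of all genes were called. At an unadjusted p under 0.05 were 7 of the 12 and 2775 of 21168 genes. Against Mysm1-/-Puma+/-, 0 of 12 were positive (median -0.44, against 0.09) and 0 were called, beside 1.24% of all genes. There 10 had an unadjusted p under 0.05, as did 3607 of 21168 genes. In Mysm1-/-Puma+/- against wild type the same genes had 7 positive values and a median of 0.04. The level of the division genes moved with the Mysm1-/-Puma-/- values, as given above, and its part was not tested. In CD150-positive against CD150-negative Mysm1-/-Puma-/- cells 5 of 12 rose (Aars, Gars, Yars, Iars and Wars), 0 fell and all 12 were positive (median 0.34, against -0.07 over all genes, with 12.3% of all genes called), while the 12 division genes had 5 higher and 0 lower (median 0.55).

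Of the 14 genes that set or reverse the eIF2α switch, the kinases Eif2ak1 to Eif2ak4, the phosphatase subunits and the eIF2 and eIF2B subunits, edgeR called 0 between genotypes in CD150-negative cells against wild type. In Mysm1-/-Puma+/- cells 8 were positive (median 0.06) and 1 had an unadjusted p under 0.05, and in Mysm1-/-Puma-/- cells 4 were positive (median -0.22) and 3 had an unadjusted p under 0.05. Of all 21168 genes, 2020 and 2775 had an unadjusted p under 0.05 in these comparisons. In CD150-positive cells 12 and 10 were positive (medians 0.14 and 0.05) and 0 were called. Over all genes, 5.9% were called between populations in Mysm1-/-Puma+/-, 12.3% in Mysm1-/-Puma-/- and 7.15% in wild type. Between populations the list had 1 higher in Mysm1-/-Puma+/- (Ppp1r15b, the constitutive phosphatase subunit, 0.41, adjusted p = 0.0192), 3 higher in Mysm1-/-Puma-/- and 2 higher in wild type, with 0 lower in each. Besides Ppp1r15a these were Eif2b1 (0.50, adjusted p = 0.0256) and Eif2s1 (0.38, adjusted p = 0.0477), subunits of eIF2B and eIF2, in Mysm1-/-Puma-/-, and the kinase PKR, Eif2ak2 (0.74, adjusted p = 0.0221), in wild type. Ppp1r15a, which encodes GADD34, the inducible subunit that reverses eIF2α phosphorylation and is itself an ATF4 target, rose in CD150-positive against CD150-negative cells of Mysm1-/-Puma-/- (2.01, adjusted p = 0.0100) and wild type (2.14 ± 0.56, adjusted p = 0.0152). It also rose in P against B libraries, by 1.55 ± 0.28 (adjusted p = 0.0249), where 0.129% of all genes were called. So did 3 of 8 genes known to respond to tissue handling (median 1.29). Their part in the Ppp1r15a values was not tested.

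Across libraries within a population, pairs of members were compared on log2 CPM with the group means taken off, over 90 pairs in all, of which 7 had an adjusted permutation p under 0.05. The permutations moved libraries freely over all groups, although taking off group means ties the values within a group. The permutation p-values here and below therefore tend to be too small, and calls near 0.05 are uncertain. Psat1 and Phgdh moved together in CD150-negative libraries, with Pearson's r = 0.89 (permutation p = 1.6e-04, adjusted p = 0.0072) and Spearman's rho = 0.87 (permutation p = 4.8e-04, adjusted p = 0.0216) over 12 libraries, and r = 0.80 without the 2 libraries farthest from the median. In the 17 CD150-positive libraries r was 0.63 (permutation p = 0.00694, adjusted p = 0.0668) and rho 0.49 (permutation p = 0.0512, adjusted p = 0.234). There r was 0.22 without the 2 farthest libraries, so the relation rested on them, and 0.93 in the 13 libraries named A to D (adjusted p = 9e-04). Atf4 and Slc7a11 ran opposite in CD150-positive libraries, with r = -0.83 (permutation p = 7e-05, adjusted p = 0.0063) and rho = -0.78 (permutation p = 3.2e-04, adjusted p = 0.0216), r = -0.79 without the 2 farthest and r = -0.86 with the P and W libraries left out. The other 5 pairs had an absolute r between 0.66 and 0.86 and no rho with an adjusted p under 0.05. They were Atf4 with Phgdh, Atf4 with Psat1 and Asns with Trib3 in CD150-negative libraries (r = 0.86, 0.77 and 0.83), and Phgdh with Slc7a11 and Ddit3 with Psat1 in CD150-positive libraries (r = -0.68 and -0.66). Without the 2 farthest libraries these were 0.77, 0.67 and 0.54 in CD150-negative and -0.71 and -0.65 in CD150-positive libraries. With the P and W libraries left out, Ddit3 with Psat1 was no longer called (r = -0.59, adjusted p = 0.144), and Ddit3 with Trib3 was (r = 0.84, adjusted p = 0.00828, against r = 0.66, adjusted p = 0.0543 over all 17 libraries).

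The same values were set against the receptor reads and the summed division genes, 40 relations in all, of which 12 had an adjusted permutation p under 0.05 for r. The limit on the permutation p-values given above holds for these as well. Slc7a11 rose with receptor reads across CD150-positive libraries, with r = 0.85 (permutation p = 1e-05, the smallest these permutations can give, adjusted p = 4e-04) and rho = 0.82 (permutation p = 7e-05, adjusted p = 0.0028). It was r = 0.80 without the 2 farthest libraries and r = 0.80 with the P and W libraries left out. Atf4 ran the other way (r = -0.71, permutation p = 0.00138, adjusted p = 0.00903, and rho = -0.66, permutation p = 0.00528, adjusted p = 0.0396), with r = -0.89 with the P and W libraries left out, so that both genes of the opposed pair moved with the receptor reads. Slc7a11 also ran against the division genes there (r = -0.72, permutation p = 7.7e-04, adjusted p = 0.0077, and rho = -0.75, permutation p = 7.9e-04, adjusted p = 0.0158), with r = -0.78 without the 2 farthest and r = -0.74 with the P and W libraries left out. With the receptor reads as a covariate the wild-type population difference of Slc7a11 was -3.13 on the log2 scale. In CD150-negative libraries Asns ran against receptor reads (r = -0.80, permutation p = 0.00158, adjusted p = 0.00903; rho = -0.71, permutation p = 0.0115, adjusted p = 0.0513; r = -0.68 without the 2 farthest). There Trib3 ran against both receptor reads (r = -0.69, permutation p = 0.00934, adjusted p = 0.0338, rho = -0.48) and division genes (r = -0.70, permutation p = 0.00858, adjusted p = 0.0338, rho = -0.72), and Chac1 ran with receptor reads (r = 0.72, permutation p = 0.0101, adjusted p = 0.0338, rho = 0.77). Without the 2 farthest libraries these were -0.57, -0.64 and 0.59.

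Phgdh rose with the division genes in both populations, with r = 0.81 (permutation p = 1.1e-04, adjusted p = 0.0022) and rho = 0.65 (permutation p = 0.00594, adjusted p = 0.0396) in CD150-positive and r = 0.82 (permutation p = 0.00128, adjusted p = 0.00903) and rho = 0.62 (permutation p = 0.0375, adjusted p = 0.136) in CD150-negative libraries. Without the 2 farthest libraries r was 0.56 and 0.55, and with the P and W libraries left out it was 0.92 in CD150-positive cells. Psat1 gave r = 0.74 (permutation p = 7e-04, adjusted p = 0.0077; rho = 0.66, adjusted p = 0.0396) in CD150-positive and r = 0.80 (permutation p = 0.00209, adjusted p = 0.0104; rho = 0.58, adjusted p = 0.173) in CD150-negative libraries, with r = 0.43 and 0.61 without the 2 farthest. Atf4 gave r = 0.78 with the division genes in CD150-negative libraries (permutation p = 0.00404, adjusted p = 0.0180, rho = 0.62, adjusted p = 0.136), or 0.53 without the 2 farthest. Ddit4 had no relation with an adjusted p under 0.05 to receptor reads (r = -0.29 in CD150-positive and -0.26 in CD150-negative libraries) or to the division genes (r = 0.10 and 0.28).

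**Figure D4:**
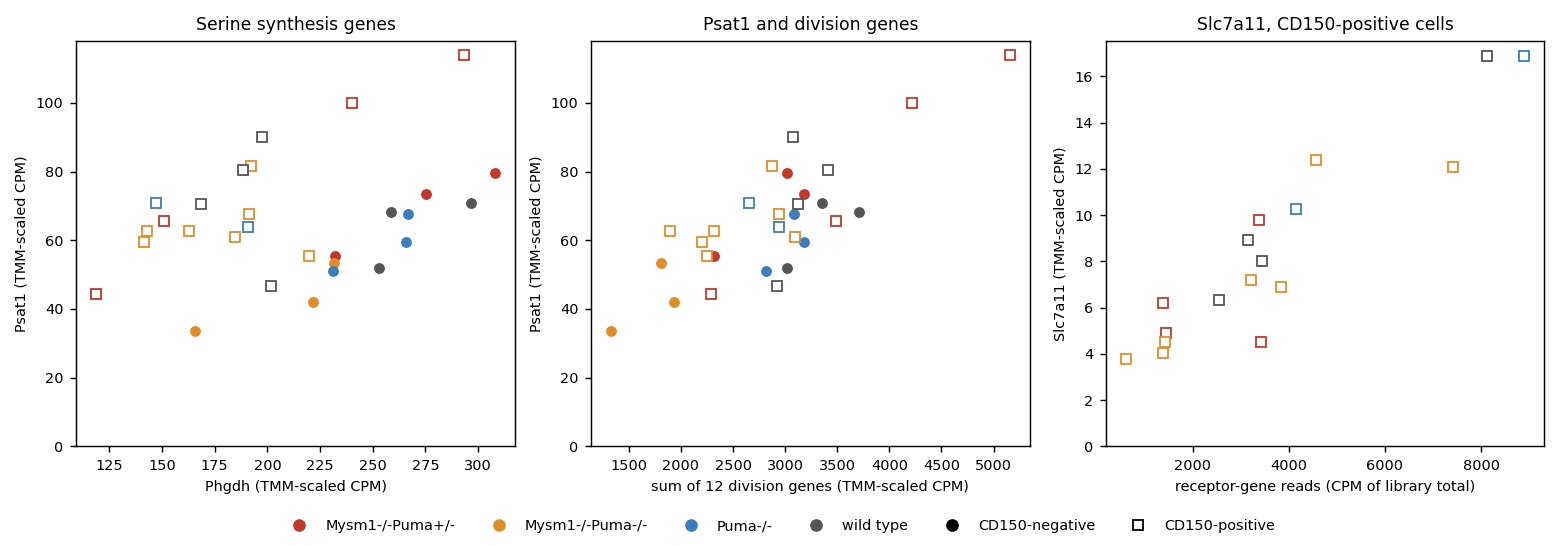
TMM-scaled CPM per library of Psat1 against Phgdh, Psat1 against the summed division genes, and Slc7a11 against receptor reads (CPM of library total) in CD150-positive libraries. Each point is a library, coloured by genotype. Filled circles mark CD150-negative and open squares CD150-positive libraries. Group means are not taken off in the plots. With log2 CPM and the group means taken off, Phgdh and Psat1 ran together (r = 0.63 in CD150-positive and 0.89 in CD150-negative libraries). On the same scale Slc7a11 rose with receptor reads (r = 0.85).

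Over the 8 group means, the genes whose pattern lay nearest to Ddit4, by the root mean square difference of centred log2 CPM among 10633 genes, were Exoc4 (0.108), Ier5 (0.136) and Atxn1 (0.144). Those nearest to Atf4 were Traf7 (0.0433), Derl1 (0.0470) and Ralgps2 (0.0513), which like Atf4 vary little between groups.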

How the data were processed

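Stranded, ribosomal RNA-depleted libraries of the sorted cells were sequenced as paired reads, per the labels' protocols. The submitters' processing notes name FastQC, Trimmomatic 0.33, TopHat2 2.0.9, Bowtie 1.0.0, featureCounts, edgeR, R 3.4.2 and the build mm9. The authors deposited raw read counts per gene and library, with gene lengths, and a table of normalized CPM values. How CPM was normalized, and whether counting used strand or multi-mapping reads, is not given in the sources used here.

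Counts were fitted with edgeR 4.0.16 in R 4.3.3 (TMM scaling, filterByExpr, quasi-likelihood F test), with Benjamini-Hochberg adjustment over all genes tested and a threshold of 0.05. Each population had its own fit over all its groups, and comparisons between populations used all 29 libraries. The SE is the log2 fold change divided by the root of F. Levels are CPM scaled by TMM over all libraries. Alternatives were RLE factors, DESeq2 1.42.0, no filter, limma 3.58.1 (limma-trend after adding 1 to the deposited CPM and taking log2, for the 9 of 10 genes in that table), 2-group fits, replicate blocks, a receptor-read covariate, and libraries left out. Leaving out the libraries with more than 1.5 times the median of receptor reads was chosen after seeing the data. Shares of all genes called are given for edgeR only, so counts of members called by DESeq2 or limma-trend have no background beside them. Correlations used 100000 permutations in Python 3.11.15. No libraries of the same group were duplicates, the lowest chi-square per degree of freedom over the 46 pairs within groups being 20.75. Pairs across groups were not compared. The fits were tested on data simulated for Mysm1-/-Puma+/- against wild type. Of 100 genes changed 2-fold, 52% were called in CD150-negative and 39% in CD150-positive cells, and of 100 changed 4-fold 86% and 76%. Of 150 and 121 genes called, 12 and 6 were unchanged. A member that was not called may therefore still differ by about 2-fold.

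The 10 genes and the other lists were chosen with earlier results of these data known, so no count over a list is independent evidence. Every one of the 10 was described, of each other list the called genes and up to 3 leading by p are named, and Gdf15, Mthfd2 and Fos were given as levels. Depth limits Chac1 and Trib3 most.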

Additional observations from a re-analysis of the deposited data

How the results depend on the processing

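No called fold change of a member changed sign under any alternative. Of 2411 recomputed fold changes 2352 kept their side of the threshold, 28 no longer passed it and 31 newly passed it. Of 247 recomputed counts 205 stayed within 1.5 times the value reported. In CD150-negative cells the 1 member called in Mysm1-/-Puma-/- against wild type became 0 with RLE factors, 4 with DESeq2, 0 with limma-trend, 2 with the receptor covariate (Ddit4, Slc7a11) and 2 with only the 2 groups (Asns, Ddit4). The 0 members called in Mysm1-/-Puma-/- against Mysm1-/-Puma+/- became 1 with DESeq2 (Psat1), and the 0 against Puma-/- became 1 with DESeq2 and 1 with the receptor covariate (Ddit4). In CD150-positive cells the 0 in Mysm1-/-Puma+/- against wild type became 1 with DESeq2 and with limma-trend, the 0 in Mysm1-/-Puma-/- against wild type became 1 with RLE factors, DESeq2, limma-trend and the receptor covariate, and the 0 against Puma-/- became 1 with DESeq2 and with limma-trend, each time Ddit4. P against B libraries gave 1 with DESeq2 (Chac1). Between populations, wild type gave 1 in place of 3 with P and W libraries left out (Slc7a11), and Mysm1-/-Puma+/- gave 2 in place of 1 with limma-trend (Phgdh, Slc7a11). The 7 member pairs became 2 when group means were not taken off, 6 with RLE factors and 8 with P and W libraries left out. The causes were not tested.

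Leaving out 1 library at a time gave 0 to 1 members in CD150-negative Mysm1-/-Puma+/- and Mysm1-/-Puma-/- against wild type and in Mysm1-/-Puma-/- against Mysm1-/-Puma+/-. It gave 0 to 1 in both Mysm1-/- groups against wild type in CD150-positive cells, and between populations 1 to 2 in Mysm1-/-Puma+/-, 2 to 3 in Mysm1-/-Puma-/- and 1 to 3 in wild type. The number of all genes called moved with it, most in CD150-negative Mysm1-/-Puma-/- against Mysm1-/-Puma+/- (1 to 1086, against 263) and in P against B libraries (3 to 241, against 28). In CD150-negative cells it was 98 to 328 (against 184) in Mysm1-/-Puma+/- and 250 to 574 (against 490) in Mysm1-/-Puma-/- against wild type.

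The number in the sample name was not taken to pair the samples, since not every pair of equal number had a correlation of deviations over 0.1. Between genotypes 14 of 24 CD150-positive pairs of equal number passed it (median 0.15, against -0.10 and 31 of 78 for unequal numbers) and 4 of 11 CD150-negative pairs (median -0.10, against 15 of 43 for unequal numbers). Across populations 4 of 7 pairs of equal name passed it (median 0.26, against -0.02 and 16 of 44 for unequal names). With the number as a replicate block Ddit4 in CD150-negative cells was 1.38 (adjusted p = 0.232) in Mysm1-/-Puma+/- and 1.14 (adjusted p = 0.347) in Mysm1-/-Puma-/- against wild type, so 0 members were called in each, and edgeR called 54 and 93 genes in place of 184 and 490. With the library name as a block between populations, limma voom called 3 members in wild type, 1 in Mysm1-/-Puma+/- and 3 in Mysm1-/-Puma-/- (Psat1 added).

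The limits are those of 2 to 7 libraries a group, shared stocks unknown, and low counts of Chac1 and Trib3, for which differences were not detectable at this depth unless large. Reads of overlapping genes cannot be told apart from those of Ddit3, Atf5 and Psat1. RNA levels do not show translation, through which Atf4 is mainly controlled.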

Other observations

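The unfolded protein response of the endoplasmic reticulum, whose kinase PERK (Eif2ak3) feeds into the same eIF2α switch, was followed through 17 genes of its other branches and chaperones. edgeR called 0 of the 17 in each of the 15 comparisons, with 0 to 5 at an unadjusted p under 0.05, against 255 to 5012 of all genes. In CD150-positive cells 16 of 17 had a positive log2 fold change in Mysm1-/-Puma-/- against wild type (median 0.14, against -0.05 over all genes) and 14 of 17 in Mysm1-/-Puma+/- against wild type (median 0.12, against -0.05). In CD150-negative cells 14 of 17 were positive in Mysm1-/-Puma+/- against wild type (median 0.18, against -0.05), where Xbp1, the transcription factor of the IRE1 branch, had 0.49 (adjusted p = 0.312). In Mysm1-/-Puma-/- against Mysm1-/-Puma+/- 3 of 17 were positive (median -0.29, against 0.09), where Pdia6, a disulfide isomerase, had -0.55 (adjusted p = 0.0954).

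Among the 30 sets of 4 or more libraries formed by the 10 genes and the 3 groups of that size, 0 held a library outside the 95% limit of Dixon's test. Asns and Trib3 showed the same libraries high and low in Mysm1-/-Puma+/- CD150-negative cells, where A3 had 21.5 and 5.32 CPM, against 8.56 to 11.7 and 1.03 to 1.28 CPM in A1 and A2.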
